A study of Homo sapiens with 9 samples.

Results

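The NDRG family (N-myc downstream regulated genes) comprises NDRG1, NDRG2, NDRG3 and NDRG4, and the rows of these 4 genes were taken from a table of 58735 genes. They were matched by gene identifier through the GENCODE annotation. The family was chosen by the measured fall of NDRG1 upon PT2385 treatment in these libraries, so the values of NDRG1 are given as a description and without a p-value. The 3 other members came in by name, and their adjusted p-values come from a model of all genes tested. RNA was sequenced from a human clear cell renal cell carcinoma (ccRCC) line in which VHL and HIF1A are both mutated, so that HIF2α is the HIF protein present, also in normal oxygen. The 3 groups had 3 replicates each and were kept for 48 h at 21% oxygen. They were untreated parental cells (WT), parental cells given 10 μM of the HIF2α antagonist PT2385, and cells of the line with a knockout of HIF2α (KO). All groups therefore share the VHL and HIF1A defects. The sources used here state neither how the knockout was made, nor whether it is 1 clone, nor whether the untreated cells received vehicle. Nothing says that the replicates were separate cultures, so p-values measure the spread between these libraries.

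The NDRG proteins share an α/β-hydrolase fold but are thought to lack enzyme activity. NDRG1 is a classic hypoxia-inducible gene that MYC proteins repress, and its protein, a substrate of the kinases SGK1 and GSK3β, has been tied to differentiation, vesicle recycling and metastasis. HIF2α pairs with HIF1β (ARNT) to drive genes of the hypoxic response, and PT2385 blocks that pairing, while VHL loss leaves HIF2α active in normal oxygen. NDRG2 is best known from astrocytes and as a candidate tumour suppressor. NDRG3 protein is controlled by the prolyl hydroxylase EGLN1 and VHL and is stabilised by lactate. NDRG4 is best known from heart and brain, and methylation of its promoter is a marker of colorectal cancer.

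In the counts, the 4 genes behaved differently. NDRG1 was far lower in PT2385-treated cells and in KO than in WT, with similar levels in both. NDRG3 was at the WT level upon PT2385 treatment and higher in KO. NDRG4 was lower in KO than in either other group, whereas its mean was highest with PT2385. NDRG2 was barely detected.

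Total counts ran from 11881000 to 14730081 reads per library, and TMM factors from 0.988 to 1.02. EPAS1, the gene of HIF2α, had 2788 to 3226 reads in WT, 3075 to 3317 with PT2385 and 262 to 360 in KO, where 8.63% of the WT level was left. All 5 renal epithelial markers examined (PAX8, PAX2, KRT8, KRT18 and EPCAM) were detected, with a summed level of 1167 to 1277 CPM in WT, 1250 to 1390 with PT2385 and 1518 to 1594 in KO. The sum was mostly PAX8, KRT8 and KRT18, and single markers differed in direction. KRT18 averaged 161 CPM in WT, 223 with PT2385 and 288 in KO, and PAX2 averaged 34.2, 25.3 and 13.7. Of the tissues in which NDRG genes are best known, none of 4 cardiac and none of 4 Schwann cell markers exceeded 3 reads in any library. Of 5 neuronal markers 3 did (RBFOX3, SYP and SNAP25), while STMN2 was at 0 throughout. The neuronal list summed to between 5.03 and 5.84 CPM in WT, 4.26 and 7.82 with PT2385 and 7.02 and 9.07 in KO. No leukocyte or endothelial marker exceeded 3 reads, out of 3 for each type. The part of these marker levels in the results was not tested.

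Levels are given as CPM, read counts scaled with TMM factors to a common library size, to compare 1 gene between groups. To compare different genes, TPM was used, in which counts are divided by the length of the gene's exons. NDRG1 (ENSG00000104419) lies on chromosome 8 of GRCh38 from 133237175 to 133302022 on the minus strand. It had 739, 595 and 597 CPM in the WT replicates, from 8822, 7226 and 7138 reads. Upon PT2385 treatment it had 59.8, 55.1 and 51.6 CPM, from 741, 737 and 739 reads. In KO it had 49.2, 52.0 and 41.5 CPM, from 638, 751 and 604 reads. Every WT library thus stood far above every other library, and the PT2385 and KO libraries overlapped. Groups that did not overlap made up 26.0% of all genes tested with PT2385 against WT (13.4% higher, 12.6% lower) and 43.8% in KO against WT (20.7% higher, 23.1% lower), and since NDRG1 was the reason for the choice nothing is read from this. The means were 643 ± 82.9 in WT, 55.5 ± 4.09 with PT2385 and 47.6 ± 5.46 in KO (SD, n = 3), so 8.62% of the WT level was left with PT2385 and 7.40% in KO. Because RNA was taken from whole cultures, fewer cells expressing a gene and less RNA per cell cannot be told apart.

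**Figure D1:**
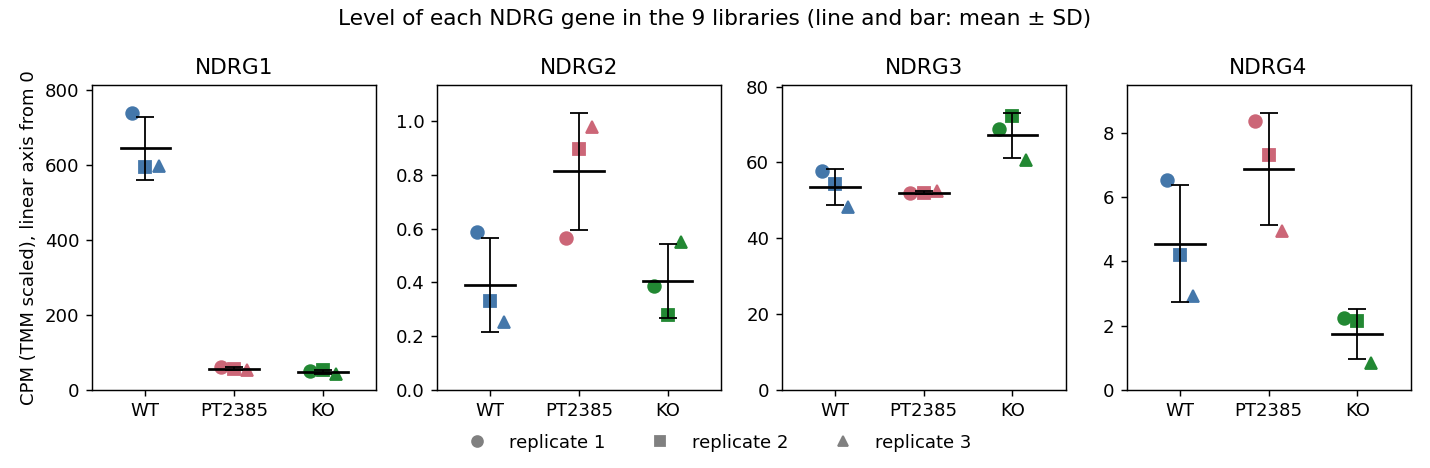
TMM-scaled CPM of each NDRG gene (linear vertical axes from 0, a separate scale for each gene) in the 9 libraries, grouped as WT, PT2385 and KO on the horizontal axis. Symbols mark the replicate number, and the line with bars is the mean ± SD of 3 libraries. NDRG1 was at 595 to 739 CPM in WT and at no more than 59.8 elsewhere, whereas NDRG4 had its lowest values in KO.

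The log2 fold change of NDRG1 was -3.54 (standard error 0.0978, 95% confidence interval -3.75 to -3.33) with PT2385 and -3.74 (standard error 0.114, interval -3.99 to -3.49) in KO, both against the same WT libraries. Between same-numbered libraries the difference ran from -3.63 to -3.43 with PT2385 and from -3.91 to -3.51 in KO. KO against PT2385 gave -0.22 (standard error 0.0988, interval -0.44 to -0.0042), and the KO library was the lower of each of the 3 same-numbered pairs. This small difference was -0.13 (standard error 0.0902) without KO replicate 3 and -0.16 (standard error 0.108) without PT2385 replicate 1. Among 15089 genes tested upon PT2385 treatment, 7 had a lower log2 fold change than NDRG1, and 55 of 15192 did in KO. Both ranks are descriptions only. The fall with PT2385 was the reason for the choice, and KO was compared with the same WT libraries.

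NDRG3 (ENSG00000101079, chromosome 20, 36651766 to 36746090, minus strand) had 57.8, 54.3 and 48.3 CPM in WT, from 690, 660 and 578 reads. Upon PT2385 treatment it had 51.9, 51.8 and 52.4 CPM, from 644, 694 and 750 reads. In KO it had 68.8, 72.2 and 60.7 CPM, from 892, 1042 and 883 reads. The PT2385 libraries lay within the range of WT, and every KO library lay above all 6 others. In KO against PT2385, 35.4% of all genes tested had groups that did not overlap (16.7% higher, 18.7% lower), so such a separation was common in both comparisons with KO. NDRG3 was higher in KO than in WT by 0.34 on the log2 scale, that is 1.27-fold (standard error 0.0903, 95% confidence interval 0.14 to 0.54, adjusted p = 0.0144, edgeR). The call was lost without WT replicate 2 (adjusted p = 0.0506) and without WT replicate 3 (adjusted p = 0.0648, edgeR). Against PT2385-treated cells KO was higher by 0.37 (standard error 0.0817, adjusted p = 0.00936, edgeR), which held with each library left out. With PT2385 against WT no difference was detected, with a log2 fold change of -0.04 (adjusted p = 0.814, edgeR) and an interval of -0.21 to 0.13, so a change beyond 0.862-fold or 1.09-fold lay outside the 95% interval.

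NDRG4 (ENSG00000103034, chromosome 16, 58462846 to 58513628, plus strand) was counted at a low level. It had 6.54, 4.20 and 2.93 CPM in WT, from 78, 51 and 35 reads. Upon PT2385 treatment it had 8.39, 7.32 and 4.96 CPM, from 104, 98 and 71 reads. In KO it had 2.24, 2.15 and 0.824 CPM, from 29, 31 and 12 reads. The KO libraries stood below all 6 others, while the WT and PT2385 libraries overlapped, and replicate 3 was the lowest library of each group. NDRG4 fell in KO against WT. The log2 fold change was -1.38 (SE 0.371, 95% confidence interval -2.20 to -0.57, adjusted p = 0.0160, edgeR). Without WT replicate 1, the WT library with the most NDRG4, the fall was -1.03 and was not called (adjusted p = 0.0805, edgeR). KO against PT2385 gave -1.99 (standard error 0.322, interval -2.70 to -1.28, adjusted p = 0.00148, edgeR), and this call held with each library left out.

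For PT2385 against WT, NDRG4 stood at 0.59 on the log2 scale (SE 0.270, interval -0.0031 to 1.17), which did not pass the test (adjusted p = 0.239, edgeR). It was higher in each of the 3 same-numbered pairs, by 0.36, 0.80 and 0.75. The value rested on single libraries, at 0.94 without WT replicate 1 and 0.35 without WT replicate 3 (adjusted p = 0.0859 and 0.516, edgeR). In this comparison same-numbered libraries deviated together, and a model with a replicate block called NDRG4 higher (log2 fold change 0.61, adjusted p = 0.0203, edgeR). That model called 2305 genes in place of 1162. Without the filter on low counts NDRG4 was also called higher (adjusted p = 0.0321, edgeR).

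Promoter windows of 250 bases before annotated transcript starts were taken from RefSeq (GRCh38.p14) for NDRG2 (5 windows) and NDRG4 (4 windows). They were searched for the HIF core motif, spelled ACGTG or GCGTG, on both strands. At least 1 match was found in 1 of the 4 NDRG4 windows and 3 of the 5 NDRG2 windows, and in 43.2% of 35116 windows of the same length over all genes. Of the 3 NDRG2 windows 2 overlap and hold the same match, so they contain 2 distinct matches in all. All matches in both genes were GCGTG, and ACGTG was in none of the 9 windows, against 18.5% of all windows. The most upstream NDRG4 window held 4 matches, which began 163, 79, 71 and 17 bases before the start, in sequence with a GC content of 82.8% and 40 CG dinucleotides. The part of it outside annotated exons is shown, since NDRG4 is the member whose level differed most between PT2385 and KO and whose promoter is known for its CpG island. It covers chr16:58463465-58463630 on the plus strand, and capitals mark the match at 163 bases, GCGTG read on the opposite strand.
NDRG4 promoter: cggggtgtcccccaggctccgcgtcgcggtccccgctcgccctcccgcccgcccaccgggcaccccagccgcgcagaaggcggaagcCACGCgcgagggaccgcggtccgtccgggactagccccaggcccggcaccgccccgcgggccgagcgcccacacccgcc
A match is a run of letters and no evidence of binding, which was not measured here.

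NDRG2 (ENSG00000165795, chromosome 14, 21016763 to 21070872, minus strand) had 7, 4 and 3 reads in WT, 7, 12 and 14 with PT2385 and 5, 4 and 8 in KO. These counts are close to the floor of 3 reads below which a gene was taken as undetected, and NDRG2 did not pass the filter. With no filter on low counts its log2 fold change was 1.06 with PT2385 against WT (standard error 0.522, adjusted p = 0.319, edgeR) and 0.07 in KO against WT (standard error 0.632). The unadjusted p for PT2385 against WT was 0.0426 in that edgeR model (interval 0.035 to 2.08). KO against PT2385 gave -1.0 on the log2 scale (SE 0.512, adjusted p = 0.245, unadjusted p = 0.0503, edgeR). The CPM of the KO libraries, 0.277 to 0.550, lay just below those of the PT2385 libraries, 0.565 to 0.978. Their reads overlapped, with 8 in KO replicate 3 and 7 in PT2385 replicate 1. Among genes that passed the filter, 35.4% had groups that did not overlap in CPM (16.7% higher, 18.7% lower). No difference of NDRG2 passed the adjusted test, from at most 14 reads in a library.

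NDRG1, NDRG3 and NDRG4 passed the filter. Of NDRG3 and NDRG4, the 2 tested members for which a p is given, 0 were called upon PT2385 treatment, where 7.70% of all genes tested were called in either direction. Neither had an unadjusted p under 0.05 (0.600 for NDRG3 and 0.0510 for NDRG4), and DESeq2 called neither (adjusted p = 0.922 and 0.259). NDRG4 was called under 2 of 7 alternative settings, those given above. In KO against WT both were called, NDRG3 higher and NDRG4 lower, where 30.1% of genes were called, 14.7% higher and 15.4% lower. In KO against PT2385 both were called in the same directions, against 18.8% of all genes, 8.47% higher and 10.3% lower. A call in KO was thus common among all genes.

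**Figure D2:**
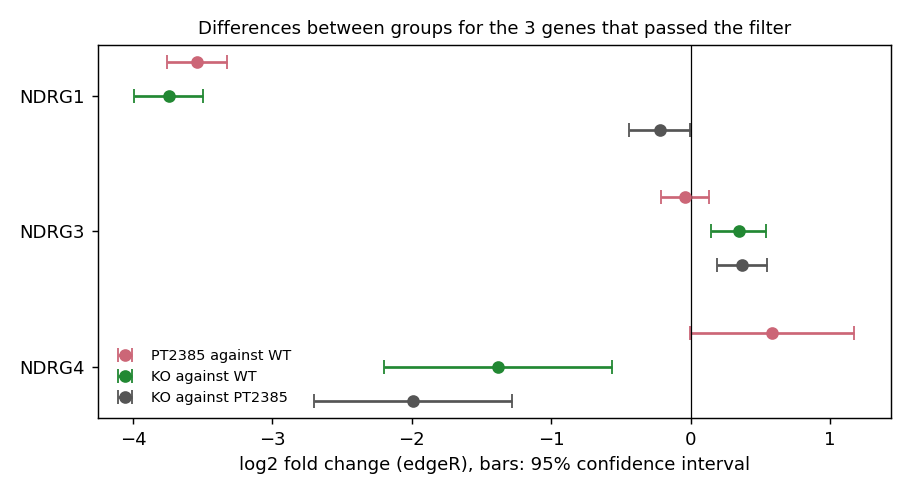
Log2 fold changes from edgeR (horizontal axis, points) with 95% confidence intervals (bars) for the 3 NDRG genes that passed the filter, in the 3 comparisons marked by colour. NDRG1 lies at -3.54 and -3.74 against WT, NDRG3 at 0.34 in KO against WT, and NDRG4 at 0.59 with PT2385 and -1.38 in KO.

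Per exon length, NDRG1 was the most abundant member in WT, with 224 ± 31.4 TPM against 68.4 ± 5.13 for NDRG3, 1.96 ± 0.783 for NDRG4 and 0.214 ± 0.0970 for NDRG2 (SD, n = 3). Upon PT2385 treatment NDRG3 came first with 69.8 ± 1.36 TPM, followed by NDRG1 with 20.2 ± 1.94, NDRG4 with 3.13 ± 0.855 and NDRG2 with 0.469 ± 0.118. The order in KO was the same as with PT2385, with 85.6 ± 3.91 TPM for NDRG3, 16.4 ± 1.20 for NDRG1, 0.740 ± 0.321 for NDRG4 and 0.225 ± 0.0864 for NDRG2. Within each group no library of one gene overlapped any library of the next gene in the order.

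The summed TPM of the family was 294 ± 36.8 in WT, 93.6 ± 3.90 with PT2385 and 103 ± 5.35 in KO (SD, n = 3). Without NDRG1 the sum was 70.5 ± 6.01, 73.4 ± 1.97 and 86.5 ± 4.15, so the other members together were not lower in either group. NDRG1 made up 75.9% ± 1.44 of the family's TPM in WT, 21.6% ± 1.16 with PT2385 and 16.0% ± 0.348 in KO. NDRG3 made up 23.3% ± 1.48, 74.6% ± 1.79 and 83.1% ± 0.532. The ratio of NDRG1 to NDRG3 was 2.97 to 3.47 in WT, 0.268 to 0.313 with PT2385 and 0.186 to 0.196 in KO, and the 3 ranges did not overlap. The shares depend on the length used, because the annotated exons of NDRG1 add up to 12002 bases but its longest transcript to 3983. By the longest transcript NDRG1 made up 89.5%, 42.1% and 34.1%, and NDRG3 was still the larger of both in PT2385-treated cells and in KO.

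**Figure D3:**
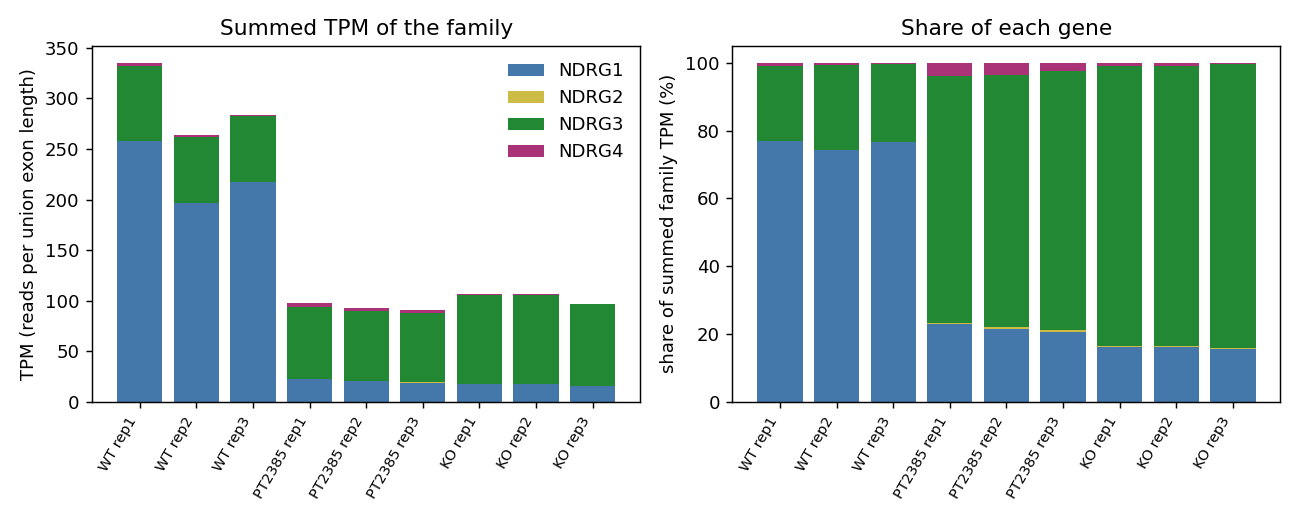
TPM of the 4 NDRG genes stacked by library (left, vertical axis in TPM from 0) and as a share of their sum (right, in percent), with the 9 libraries on the horizontal axis. The mean sum was 294 TPM in WT, 93.6 with PT2385 and 103 in KO, and NDRG3 took the place of NDRG1 as the largest share.

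NDRG1 was set beside a list of 24 HIF target genes, of which 20 passed the filter. CA9 was at 0 reads in all 9 libraries, and ANKRD37, ANGPTL4 and EPO were too low. Upon PT2385 treatment 14 of the 20 fell and 0 rose (edgeR, adjusted p under 0.05, against 4.62% lower and 3.08% higher among all genes), and in KO 15 fell and 0 rose (against 15.4% lower and 14.7% higher among all genes). The median log2 fold change of the list was -0.80 with PT2385 and -0.75 in KO, beside 0.00099 and 0.0038 over all genes tested. The study had named EGLN3, SLC2A1, CA12 and VEGFA as lowered by PT2385 in the same comparison, so this count is not independent of these data. By size, NDRG1 stood below all 20 with PT2385, ahead of the prolyl hydroxylase gene EGLN3 (-3.14), the vasodilator peptide gene ADM (-2.81), the mTORC1 inhibitor gene DDIT4 (-2.64) and the glucose transporter gene SLC2A1 (-2.31). As the family was chosen by this fall of NDRG1, nothing is read from its rank with PT2385. The same holds for its rank in KO, which was compared with the same WT libraries. In KO only EGLN3 (-5.74) stood below NDRG1, and the carbonic anhydrase gene CA12 (-3.37) and ADM (-3.11) came next.

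EGLN3 and CA12 were lower in KO than with PT2385, with log2 fold changes of -2.61 and -1.93 (adjusted p = 5.74e-06 and 1.70e-06, edgeR). SLC2A1 was higher in KO than with PT2385 by 0.49 (adjusted p = 0.00161, edgeR). In all, 4 of the 20 were lower and 3 higher in that comparison, and NDRG1, at -0.22, lay between. Among all genes tested 10.3% were called lower and 8.47% higher there. BNIP3 and PGK1, also classic targets, did not pass the test against WT, with 0.19 and -0.0053 upon PT2385 treatment and 0.19 and 0.15 in KO.

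**Figure D4:**
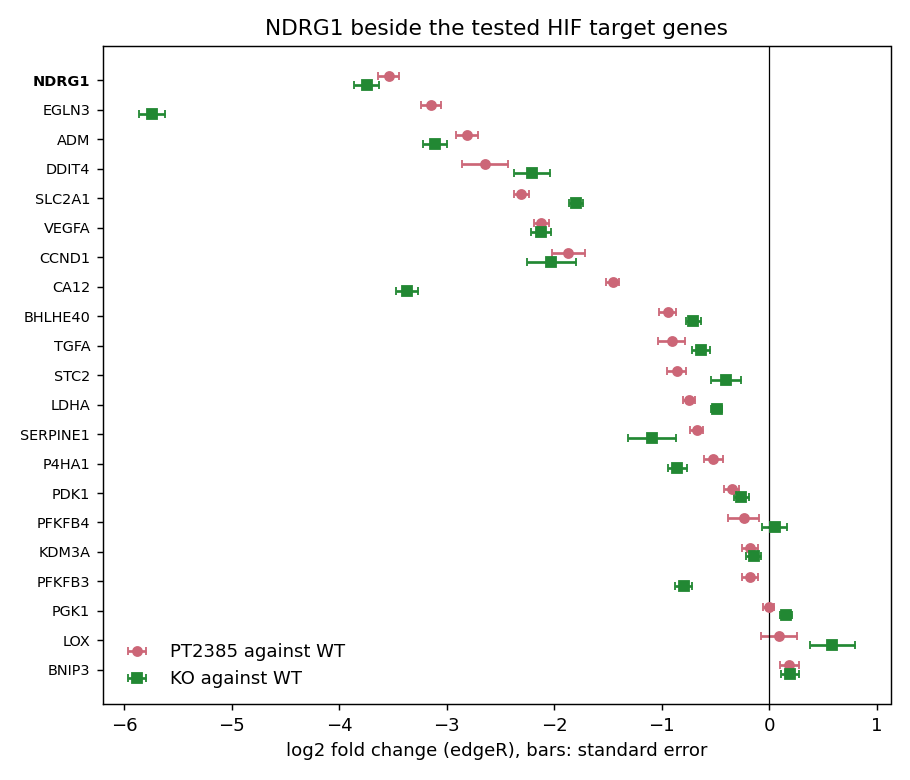
Log2 fold changes from edgeR (horizontal axis) with standard errors (bars) for NDRG1 and the 20 tested HIF target genes (vertical axis, ordered by the value with PT2385). Circles are PT2385 against WT and squares are KO against WT, which share the WT libraries. NDRG1, by whose fall the family was chosen, has the lowest value with PT2385 (-3.54), and EGLN3 has the lowest in KO (-5.74).

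Of 10 genes of HIF and oxygen sensing 9 were tested, and EGLN3 alone was called upon PT2385 treatment, where 7.70% of all genes tested were called. EPAS1 itself was not called with PT2385 (log2 fold change -0.11, adjusted p = 0.459, edgeR), and ARNT had -0.05 with PT2385 and 0.07 in KO. In KO 3 of the 9 fell (EGLN3, ARNT2 and EPAS1, the targeted gene itself) and 2 rose, HIF1A by 0.79 and EGLN1 by 1.21. Among all genes tested 15.4% were called lower and 14.7% higher in KO. The HIF1A copy of this line carries an inactivating mutation, and its RNA level says nothing of the protein.

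Of 8 genes chosen as other regulators of NDRG1 transcription 7 were tested. With PT2385 1 was called higher and 1 lower, where 3.08% of all genes tested were called higher and 4.62% lower. In KO 2 were called higher and 1 lower, where 14.7% of all genes were called higher and 15.4% lower. MYC, which represses NDRG1, had 119 ± 11.5 CPM in WT, 114 ± 8.99 with PT2385 and 105 ± 28.5 in KO (SD, n = 3) and was not called in either comparison with WT (adjusted p = 0.717 and 0.477, edgeR). MYCN, the gene after which the family was named, had 0 reads in all 9 libraries, though a level too low to detect at this depth remains possible. AHR, a ligand-activated transcription factor, fell in both comparisons, by 0.79 with PT2385 and by 0.49 in KO. EGR1, an immediate early gene, rose with PT2385 by 1.75 (standard error 0.481, adjusted p = 0.0467, edgeR) from few reads, namely 15, 4 and 9 in WT and 52, 18 and 35 with PT2385. In KO MAX, the partner of MYC, rose by 0.23.

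Of 12 genes for kinases of NDRG1 and their activators, 1 was called upon PT2385 treatment, where 7.70% of all genes tested were called, and 6 in KO, 3 of them higher and 3 lower, where 14.7% of all genes were called higher and 15.4% lower. The call with PT2385 was SGK2, a relative of SGK1, which rose from 20.5 ± 0.755 to 31.9 ± 3.23 CPM (log2 fold change 0.64, adjusted p = 0.00139, edgeR) and was at 34.8 ± 8.26 in KO (log2 fold change 0.78, adjusted p = 0.00224). SGK3 (0.63) and GSK3B (0.19) rose in KO as well, and PRR5L (-0.79), RICTOR (-0.27) and PDPK1 (-0.18) fell there, the former pair being components of mTORC2 and PDPK1 an activating kinase of SGK. SGK1 was not called, with 0.33 upon PT2385 treatment and 0.20 in KO (adjusted p = 0.158 and 0.478, edgeR). Phosphorylation of NDRG1 was not measured.

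Of 9 genes around NDRG3, which cover among others lactate production, lactate transport and its degradation, LDHA alone was called upon PT2385 treatment. Among all genes tested 7.70% were called in that comparison. LDHA, which encodes the lactate dehydrogenase subunit that makes lactate, fell by 0.75 with PT2385 (standard error 0.0566) and by 0.49 in KO (standard error 0.0556). In KO EGLN1 rose by 1.21 (standard error 0.0579, adjusted p = 7.91e-08, edgeR), from 72.8 to 167 CPM. The lactate transporter genes SLC16A1 and SLC16A3 and VHL were not called in any of the 3 comparisons.

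Of 6 adhesion and recycling partners of NDRG1 5 were tested. CDH1, the gene of E-cadherin, had at most 1 read in any library. CAV1, the gene of caveolin, was the only call upon PT2385 treatment and fell by 0.44 (adjusted p = 0.00136, edgeR). Among all genes tested 4.62% were called lower and 3.08% higher there. In KO RAB4A (-0.51), a small GTPase of recycling endosomes, and TJP1 (-0.41), a tight junction scaffold, fell, and CTNNB1 (0.19) and CD82 (0.47) rose. The WT and KO libraries of CD82 overlapped. Calls in KO were common, with 14.7% of all genes tested called higher and 15.4% lower.

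The genes with a pattern most like that of each member over the 9 libraries were found by Pearson's r of log2 CPM, among about 10140 genes with at least 100 reads per library on average. As the 9 libraries form 3 groups, r mostly reflects the group means. For NDRG1 these were ERRFI1 (r = 0.995), a feedback inhibitor of the EGF receptor, the ribonuclease gene RNASET2 (0.994), the kinase gene CDK18 (0.994), APOL1 (0.992) and ZNF395 (0.991). Their log2 fold changes were smaller, from -2.41 to -0.92 with PT2385 and from -2.65 to -0.93 in KO, and 75 genes had r above 0.95. For NDRG3 they were ACO1 (0.983), the cytosolic aconitase that doubles as an iron regulatory protein, STAT2 (0.980), TP53INP1 (0.980), STAMBP (0.977) and ZFYVE26 (0.976). For NDRG4 they were VPS39 (0.99), ZNF7 (0.979), the chaperone gene HSPA5 (0.976), PITPNM1 (0.973) and MRC2 (0.972), whose own changes were much smaller, between 0.05 and 0.15 with PT2385 and between -0.61 and -0.13 in KO. The members themselves were weakly related, with r from -0.54 (NDRG3 and NDRG4) to 0.43 (NDRG2 and NDRG4).

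The protein-coding genes next to the members were examined as well. Among all genes tested 7.70% were called with PT2385 against WT and 30.1% in KO against WT, 14.7% higher and 15.4% lower. Calls of neighbours in KO are to be read beside that share. Whether position beside a member plays a part was not tested. Beside NDRG1, CCN4 and TG had averages of under 1 read per library, and ST3GAL1, a sialyltransferase gene 152826 bases away, rose with PT2385 (0.47, adjusted p = 0.0138, edgeR) and in KO (0.89, adjusted p = 3.07e-05). ZFAT, farther on the same side, rose in KO (0.28, adjusted p = 0.0317, edgeR). Beside NDRG3, DSN1, a kinetochore gene 5701 bases away, fell in KO by 0.28 (adjusted p = 0.0282, edgeR), while NDRG3 rose. DSN1 had a similar value with PT2385, just short of a call (-0.25, adjusted p = 0.0503, edgeR). It did not differ detectably in KO against PT2385 (-0.05, adjusted p = 0.769, edgeR). Beside NDRG4, GINS3, a DNA replication gene, fell in KO by 0.62 (adjusted p = 0.00163, edgeR) and CNOT1, a scaffold of the deadenylase complex, by 0.45 (adjusted p = 1.53e-04), while SETD6 had -0.17 (adjusted p = 0.294, edgeR). Beside NDRG2, ZNF219 rose in KO (0.53, adjusted p = 0.0314, edgeR) and METTL17 had -0.24 (adjusted p = 0.101). RAB5IF and SOGA1 beside NDRG3 were not called in KO against WT (0.12 and -0.06, adjusted p = 0.562 and 0.477, edgeR). None of the neighbours named here other than ST3GAL1 was called upon PT2385 treatment.

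NDRG3 and NDRG4 share no exon bases with an annotated gene. NDRG1 shares 753 bases of exon, 6.27% of its exon length, with a long noncoding RNA on its own strand. That RNA is not among the genes counted by the authors. NDRG2 shares exon bases with TPPP2 (236 bases), a long noncoding RNA (173) and MIR6717 (73), each of which had 0 reads in every library. It also overlaps ARHGEF40 on the opposite strand without shared exon bases, and ARHGEF40 had 1114 reads per library on average and fell in KO (-0.32, adjusted p = 0.0166, edgeR). Whether strand was used in counting is not given in the sources used here.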

How the data were processed

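RNA of the ccRCC line was sequenced in 3 groups of 3 replicates, taken from the sample labels. The authors checked reads with FastQC, trimmed them with cutadapt, aligned them to GRCh38 with STAR and deposited raw counts per gene from featureCounts. Versions, annotation release and strand setting are not given in the sources used here. All 9 columns matched a sample, and GENCODE 44 gave symbols for 58207 of 58735 identifiers.

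Each pair of groups was compared with edgeR 4.0.16 in R 4.3.3 (TMM, filterByExpr with a minimum of 10 counts, quasi-likelihood F test, Benjamini-Hochberg adjustment over all genes tested, called at an adjusted p under 0.05). The fit was tested on simulated data. The members, lists and tests were chosen with earlier results of these data known. Named were the members, up to 4 called genes with the largest fold per list, the 5 genes most like each tested member and the neighbours; the other list genes were named after their values were seen. TPM used the union of annotated exons. Alternatives were DESeq2 1.42.0, the study's tool, RLE, upper-quartile and total-count scaling, no filter, a replicate block, 1 model of 9 libraries, each library left out, another gene length and other choices for likeness. Deviations from the group means of same-numbered WT and PT2385 libraries correlated at r = 0.452, 0.137 and 0.430 over 10140 genes, each above 0.1. The counts of calls come from the model without the block. Blocked values were looked up only for the members and the number of genes called, and stand beside the results they change. List genes and neighbours were not looked up with the block. Some list genes are not reported here.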

Additional observations from a re-analysis of the deposited data

How the results depend on the processing

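NDRG1 kept its direction and size under all 7 alternative settings in each comparison. With each library left out its log2 fold change stayed between -3.60 and -3.43 with PT2385 and between -3.81 and -3.63 in KO, and between -0.29 and -0.13 in KO against PT2385. The calls of NDRG3 and NDRG4 in KO against WT and against PT2385 held under all 7 settings. With each library left out, NDRG3 in KO against WT ranged from 0.27 to 0.42 and NDRG4 from -1.62 to -1.03, with 2 and 1 of 6 calls lost. With PT2385 against WT, NDRG4 was called with no filter on low counts (0.59) and with the replicate block (0.61), and ran from 0.35 to 0.94 with each library left out, while NDRG3 ranged from -0.11 to 0.017, positive only without WT replicate 1 (0.017). The replicate block moved the genes called with PT2385 to 2305, and leaving out a library moved them to between 574 and 1451, from 1162 (654, 581 and 728 without WT replicates 1, 2 and 3, and 574 without PT2385 replicate 2). In KO against PT2385, leaving out a library gave 1836 (without PT2385 replicate 2) to 3190 genes, from 2897. The causes were not tested. In the other comparisons the same-numbered libraries did not all deviate together (lowest r 0.0552 for KO and WT, 0.0909 for KO and PT2385), nor did every library correlate best with its own number. The block there gave 5501 in place of 4566 genes for KO against WT and 3783 in place of 2897 for KO against PT2385, and it changed no other call of a member. Of the 5 genes most like NDRG1, 0 were shared when Spearman's rho was used, and 2 of 5 for NDRG3 and NDRG4, while a minimum of 10 reads kept all 5 for each. Depth limits NDRG2 to counts of 3 to 14 reads.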
